A study of Mus musculus with 36 samples.

Results

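The genes described here are 9 enzymes that build, lengthen and desaturate fatty acids in the liver and 1 transcription factor that controls them, taken by gene symbol from a table of 54532 genes: Srebf1, Acly, Acaca, Acacb, Fasn, Elovl6, Elovl5, Scd1, Fads1 and Fads2. All 10 were found once each, and all 10 passed the filter of at least 100 counts summed over the libraries, which 17994 genes passed. The rule took them by symbol and used no measured value, although earlier results of these data were known when the genes were chosen.

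The data were poly(A) RNA-seq of 36 livers, each from a different mouse. Each genotype had 3 mice at every one of 6 sampling times, spaced by 4 h and given as Zeitgeber time (ZT, hours since lights on; lights were off from ZT12). The study asked how the loss of thyroid hormone receptor beta (THRB) alters the liver transcriptome and its daily rhythm. All mice were males of 2 to 3 months on normal chow with free access to food, of the strain B6.129S1-Thrbtm1Df/J kept on C57Bl/6NCrl, in which both THRB isoforms are lost. The 18 controls, whose labels read WT, were heterozygous (THRB+/-) and so carried 1 mutant allele themselves, and the 18 knockouts (THRBKO) were homozygous (THRB-/-), a constitutive and not a hepatocyte-specific loss.

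De novo lipogenesis turns surplus carbohydrate into fat. ATP citrate lyase releases cytosolic acetyl-CoA from citrate, acetyl-CoA carboxylase makes malonyl-CoA from it, and fatty acid synthase joins these units into palmitate, which elongases lengthen and desaturases give double bonds. Insulin and the feeding rhythm drive the pathway through SREBP1c and ChREBP, and triiodothyronine is known to raise several of its genes.

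None of the 10 genes passed the test of a difference between genotypes. The difference, knockout over control with sampling time in the model, lay between -0.21 for Acacb and 0.19 for Elovl6 on the log2 scale, and 0 of 10 passed edgeR's quasi-likelihood test at an adjusted p of 0.05, against 0.95% of all genes. Differences over the day were larger: the highest of the 6 means of Elovl6 was 3.49 times the lowest in controls and 3.49 times in THRBKO mice, and that of Fasn 3.03 and 4.25 times, past the test of time in both genotypes for Elovl6 and in THRBKO mice for Fasn. The fitted peaks were spread over the day. Fads2, Fads1 and Srebf1 peaked around or shortly after lights off, Acaca, Elovl6 and Fasn followed, Acly, Acacb and Scd1 peaked late in the dark phase, and Elovl5 around lights on, when Srebf1 was low. Scd1 and Fads1 did not pass the test of time in either genotype.

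For 3 of the genes the bases before the start are shown: the regulator itself (Srebf1), a gene with a later fitted peak (Fasn) and a gene with the opposite profile (Elovl5). They do not cover every daily profile among the genes. The Srebf1 window shown is the one farthest upstream. Its others, chr11:60220628-60220877 and chr11:60210472-60210721, are not printed, and which start these livers used was not tested. The sequences are from RefSeq (GRCm38.p6), cover the 250 bases before a start and read 5′ to 3′ on the gene's strand, with capitals marking CCAAT (or ATTGG) and CACGTG.
Srebf1 (chr11:60222582-60222831, minus strand): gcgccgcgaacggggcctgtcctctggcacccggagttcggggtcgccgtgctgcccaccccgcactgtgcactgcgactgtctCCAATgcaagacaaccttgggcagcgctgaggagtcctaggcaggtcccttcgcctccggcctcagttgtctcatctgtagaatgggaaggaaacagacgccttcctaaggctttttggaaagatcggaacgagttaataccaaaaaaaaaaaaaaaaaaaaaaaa
Fasn (chr11:120824548-120824797, minus strand): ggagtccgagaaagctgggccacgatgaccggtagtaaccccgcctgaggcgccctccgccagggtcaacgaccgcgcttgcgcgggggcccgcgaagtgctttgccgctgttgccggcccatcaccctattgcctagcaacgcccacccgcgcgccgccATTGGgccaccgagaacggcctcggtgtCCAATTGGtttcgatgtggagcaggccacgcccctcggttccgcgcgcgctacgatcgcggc
Elovl5 (chr9:77917115-77917364, plus strand): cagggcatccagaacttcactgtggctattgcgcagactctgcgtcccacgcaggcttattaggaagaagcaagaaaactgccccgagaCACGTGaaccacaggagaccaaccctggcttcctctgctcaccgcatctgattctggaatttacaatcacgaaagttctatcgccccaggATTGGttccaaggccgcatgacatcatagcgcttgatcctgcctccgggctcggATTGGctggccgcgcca

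RefSeq windows were matched for 8 of the 10 genes, with 3 windows for Srebf1 and 10 in all, while Scd1 and Fads1 had none. The only windows of Acaca (chr11:84195188-84195437) and Acacb (chr5:114165268-114165517) lie inside the deposited gene bounds, which begin at 84129672 and 114146535. They therefore precede internal starts, and the bases before the outermost start of these genes were not searched. Which starts these livers used was not tested for any gene. The CCAAT box, bound by NF-Y, was found on either strand in 5 of these 10 windows (4 of 8 genes: Srebf1, Acacb, Fasn and Elovl5), against 33.85% of all 32851 windows of this length. Fasn held 3 matches, at 90, 62 and 59 bases before the start, the last 2 overlapping on opposite strands. Elovl5 held 2, at 71 and 17 bases, and also the only CACGTG, the E-box read by clock and USF proteins, at 161 bases, a motif present in 6.02% of all windows.

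The Sp1 box GGGCGG was found in 4 windows (Acly, Fads2 and 2 of Srebf1) against 32.7% of all windows. The sterol response core TCACNCCAC was in none of the 10 (1.05% of all windows), nor was the thyroid hormone response element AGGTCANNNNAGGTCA, a pair of receptor hexamers with 4 bases between them (0.0152%). The single hexamer AGGTCA, which that element contains, was found for Elovl6 and Acly, against 14.02% of all windows. Both strands were searched for every motif, and a match is a description of the letters, not of binding.

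Library totals ran from 29063273 to 39913574 counts in controls and from 31008555 to 42530551 in THRBKO livers, and the 10 genes together took 0.446% to 1.88% and 0.830% to 1.92% of them. Thrb itself gave no check of the genotype labels, since its transcript was counted at 24.3 to 38.5 CPM (counts scaled to a common library total) in controls and 26.2 to 37.7 CPM in THRBKO livers. The 5 hepatocyte markers found summed to 61902 to 88964 CPM and 69412 to 93676 CPM. Of other cell types, Kupffer cell markers summed to 125 to 383 CPM in controls and 132 to 257 CPM in THRBKO livers, endothelial markers to 69.4 to 143 and 86.8 to 156, stellate cell markers to 91.8 to 238 and 135 to 282, cholangiocyte markers to 34.2 to 63.6 and 27.2 to 51.4, and adipocyte markers to 9.11 to 16.8 and 10.02 to 18.97. Of the 6 adipocyte markers 1 was at 0 in every library and 2 exceeded 1 CPM on average, and the pancreatic acinar markers summed to at most 0.822 CPM. No marker of these lists was called between genotypes by edgeR, and all 5 cholangiocyte and all 5 Kupffer cell markers had a negative log2 fold change, the part of which in the results was not tested. In bulk liver, fewer cells of a type and less RNA per cell cannot be told apart.

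All levels are in CPM with TMM library sizes, where TMM is a scaling that balances the bulk of genes between libraries, and values per group are mean ± SD of 3 mice. The labels letter the mice of a group a, b and c, and values of single mice are given in that order. P-values weigh differences against the spread between these mice.

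**Figure D1:**
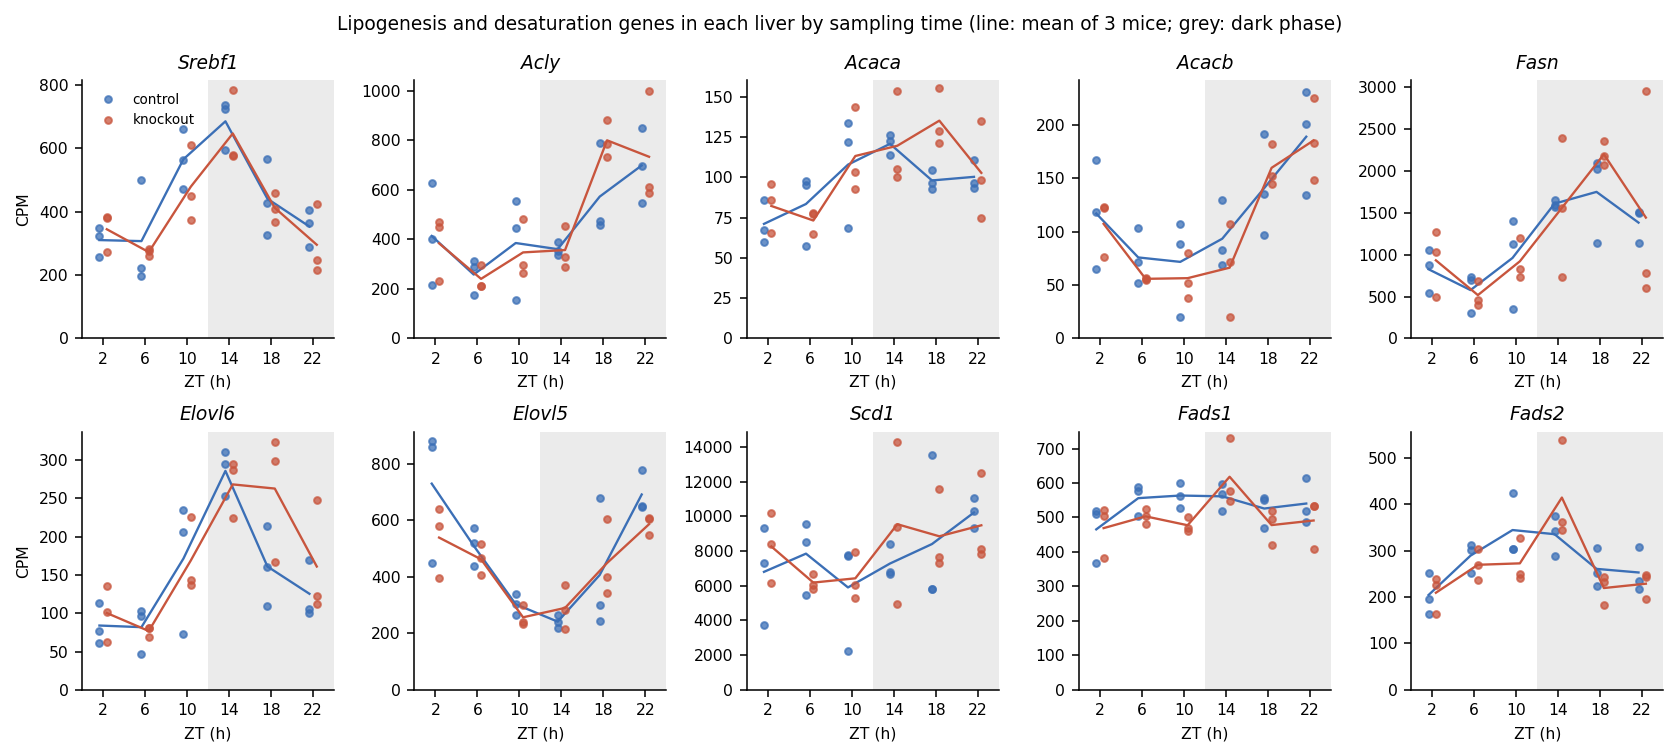
CPM (vertical axis, from 0) of the 10 genes against sampling time (ZT, h), with 1 point per liver, lines through the means of 3 mice, controls in blue and knockouts in red. The 2 colours overlap at nearly all times, while the profiles over the day differ from gene to gene, with Srebf1 high at ZT14 and Elovl5 low there.

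Srebf1 (ENSMUSG00000020538, GRCm38 chromosome 11, 60199089 to 60222581, minus strand) encodes SREBP1, whose liver isoform SREBP1c switches on the lipogenic enzymes. In controls it was counted at 310.4 ± 47.1 CPM at ZT2, 307 ± 169 at ZT6, 566 ± 95.2 at ZT10, 685 ± 77.8 at ZT14, 441 ± 121 at ZT18 and 353 ± 58.5 at ZT22. In THRBKO mice the means at the same times were 345, 272, 479, 647, 412 and 296 CPM, so that both genotypes had their lowest mean at ZT6 and their highest at ZT14. The control mice had 596, 724 and 736 CPM at ZT14 and 197, 223 and 501 CPM at ZT6, where mouse c stood well above the others. The THRBKO mice had 576, 785 and 579.6 CPM at ZT14 and 261, 275 and 282 CPM at ZT6. The mice of these times did not overlap in either genotype, and the ratio of the means was 2.23 and 2.37. Over all times the log2 fold change of THRBKO over control was -0.12 (SE 0.10, 95% interval -0.33 to 0.09, adjusted p = 0.719), and THRBKO means were higher at 1 of 6 times.

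Acly (ENSMUSG00000020917, GRCm38 chromosome 11, 100476353 to 100528000, minus strand), ATP citrate lyase, supplies the acetyl-CoA. Control levels were 414 ± 207 CPM at ZT2, 258 ± 73.1 at ZT6, 385 ± 206 at ZT10, 361 ± 25.8 at ZT14, 573 ± 187 at ZT18 and 699 ± 153 at ZT22. THRBKO means were 384, 241, 347, 357, 800.4 and 734 CPM from ZT2 to ZT22, with the highest at ZT18 instead of ZT22. At ZT18 the THRBKO mice lay at 733, 786 and 882 CPM and the controls at 474, 457 and 788 CPM. Control mouse c was inside the THRBKO range and mice a and b below it, and this difference of 0.48 (log2) did not pass the test. Over the day the fold change was 0.03 (SE 0.14, 95% interval -0.26 to 0.32, adjusted p = 0.961) on the log2 scale.

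Acaca (ENSMUSG00000020532, GRCm38 chromosome 11, 84129672 to 84401651, plus strand) and Acacb (ENSMUSG00000042010, GRCm38 chromosome 5, 114146535 to 114250761, plus strand) encode the 2 acetyl-CoA carboxylases. The first makes the malonyl-CoA used for synthesis in the cytosol, the second the pool at mitochondria that restrains fatty acid oxidation. Acaca was at 71.2 ± 13.2 CPM at ZT2, 83.5 ± 22.4 at ZT6, 108 ± 34.8 at ZT10, 121 ± 6.44 at ZT14, 98.2 ± 5.93 at ZT18 and 100.4 ± 9.29 at ZT22 in controls, a narrow range, with THRBKO means of 82.3, 73.3, 113, 119.7, 135 and 103 CPM. At ZT18 the THRBKO mice had 129, 122 and 156 CPM and the controls 96.8, 93.04 and 105 CPM, with every knockout above every control. The log2 fold change there was 0.46 (SE 0.23, 95% interval -0.000579 to 0.93, adjusted p = 0.915 by edgeR). Over all times it was 0.10 (SE 0.09, 95% interval -0.09 to 0.28, adjusted p = 0.749).

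Acacb had another profile. Its control levels were 117 ± 50.7 CPM at ZT2, 75.8 ± 26.01 at ZT6, 71.7 ± 45.6 at ZT10, 93.4 ± 31.8 at ZT14, 141 ± 47.5 at ZT18 and 189 ± 49.4 at ZT22, highest late in the dark phase, and the THRBKO means were 107, 55.8, 56.4, 66.2, 159.8 and 185 CPM. Single mice stood far apart. At ZT10 the controls had 107, 87.99 and 20.2 CPM and at ZT14 the knockouts 107, 71.8 and 19.8 CPM, mouse c being by far the lowest each time. The 3 THRBKO mice of ZT6 had 55.04, 55.6 and 56.7 CPM, nearly the same value. Acacb had the lowest estimate of the 10 genes over all times, -0.21 (SE 0.18, 95% interval -0.57 to 0.16, adjusted p = 0.708), with THRBKO means lower at 5 of 6 times and an interval that reached from a fold of 0.672 to 1.11.

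Fasn (ENSMUSG00000025153, GRCm38 chromosome 11, 120805846 to 120824547, minus strand), the synthase that makes palmitate, was at 825 ± 258 CPM at ZT2, 577 ± 238 at ZT6, 960.5 ± 542 at ZT10, 1608 ± 44.4 at ZT14, 1748 ± 534 at ZT18 and 1382 ± 207 at ZT22 in controls. In THRBKO mice it was at 932 ± 399 CPM at ZT2, 517 ± 151 at ZT6, 920.4 ± 242 at ZT10, 1558 ± 828 at ZT14, 2197 ± 144 at ZT18 and 1442 ± 1308 at ZT22. The highest mean came at ZT18 and the lowest at ZT6 in both genotypes, and the mice of these times did not overlap. At ZT18 the controls had 2022, 1133 and 2089.8 CPM and the knockouts 2351, 2066 and 2174 CPM, with control mouse b below all others. At ZT22 the knockouts had 777, 601 and 2948 CPM, mouse c being the highest of all 36 livers and mouse b near the ZT6 level. The fold change over all times was 1.04 with a 95% interval of 0.798 to 1.34, or 0.05 (SE 0.18, 95% interval -0.32 to 0.42, adjusted p = 0.948) on the log2 scale. THRBKO means were higher at 3 of 6 times and lower at 3.

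Elovl6 (ENSMUSG00000041220, GRCm38 chromosome 3, 129532355 to 129638495, plus strand) lengthens palmitate to stearate. It was at 83.9 ± 26.8 CPM at ZT2, 81.8 ± 30.9 at ZT6, 171 ± 86.4 at ZT10, 286 ± 29.7 at ZT14, 161 ± 52.5 at ZT18 and 125 ± 38.6 at ZT22 in controls. THRBKO means were 100.2, 76.8, 169, 268, 263 and 161 CPM at the same times. At ZT14 the controls had 294, 310.2 and 253 CPM and the knockouts 287, 294 and 224 CPM, close to each other. At ZT18 the control mice had come down to 160.0, 109 and 214 CPM, while the knockouts had 323, 166 and 299 CPM, with mouse b within the control range and the other two above it. The log2 fold change at ZT18 was 0.71 (SE 0.37, adjusted p = 0.931 by edgeR), the largest of all 60 gene and time combinations and not past the threshold. Over all times it was 0.19 (SE 0.15, 95% interval -0.12 to 0.49, adjusted p = 0.68).

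Elovl5 (ENSMUSG00000032349, GRCm38 chromosome 9, 77917364 to 77984519, plus strand) lengthens polyunsaturated fatty acids. It ran opposite to Srebf1, with control levels of 729 ± 242 CPM at ZT2, 509 ± 68.9 at ZT6, 303 ± 37.6 at ZT10, 241 ± 22.9 at ZT14, 406 ± 236 at ZT18 and 691 ± 75.2 at ZT22. THRBKO means were 538, 462, 256, 289.6, 448 and 586 CPM. At ZT2 the controls had 449.8, 879.6 and 858 CPM and the knockouts 395, 579 and 640.4 CPM, where mouse a was the lowest of its group in both genotypes. At ZT22 they had 777, 649 and 645 CPM and 547, 603 and 607 CPM. Every knockout was below every control at ZT22, but the log2 difference of -0.24 (SE 0.27) did not pass edgeR's test (adjusted p = 0.988). The highest over the lowest mean was 3.02 in controls and 2.28 in THRBKO mice. Over all times the log2 fold change was -0.11 (SE 0.11, 95% interval -0.34 to 0.12, adjusted p = 0.767).

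Scd1 (ENSMUSG00000037071, GRCm38 chromosome 19, 44394451 to 44407709, minus strand), the delta-9 desaturase that makes oleate and palmitoleate, was the most abundant of the genes per length. Control levels were 6802 ± 2829 CPM at ZT2, 7851 ± 2136 at ZT6, 5903 ± 3175 at ZT10, 7281 ± 980.4 at ZT14, 8405 ± 4449.8 at ZT18 and 10223 ± 867 at ZT22, and THRBKO means were 8265, 6183, 6429, 9549, 8852 and 9486 CPM. Its spread within groups was wide. The knockouts of ZT14 had 14282, 9405 and 4960.3 CPM, the controls of ZT10 7769, 7702 and 2237 CPM and those of ZT18 5836, 5835 and 13543 CPM. Mouse c was far below the others at ZT10 and far above them at ZT18 in controls, the 3 knockouts of ZT14 were spread widely, and the highest and lowest sampling times of THRBKO mice overlapped. The fold change over all times was 0.07 (SE 0.15, 95% interval -0.24 to 0.38, adjusted p = 0.907) on the log2 scale.

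Fads1 (ENSMUSG00000010663, GRCm38 chromosome 19, 10182888 to 10196870, plus strand) and Fads2 (ENSMUSG00000024665, GRCm38 chromosome 19, 10064164 to 10101503, minus strand), the delta-5 and delta-6 desaturases of polyunsaturated fatty acid synthesis, lie head to head with 81.4 kb between their starts. Fads1 was the steadiest gene, with control means of 466, 556, 564, 561, 526 and 541 CPM and THRBKO means of 469, 503, 478, 618, 478 and 491 CPM from ZT2 to ZT22. At ZT10 the controls had 527, 601 and 563 CPM and the knockouts 470.3, 500.1 and 462 CPM. All knockouts were lower at this time, with a log2 difference of -0.24 (SE 0.14, adjusted p = 0.999992 by edgeR). Over all times Fads1 had the lowest unadjusted p of the 10 genes, 0.134, with a log2 fold change of -0.08 (SE 0.06, 95% interval -0.20 to 0.03, adjusted p = 0.574), and its interval reached down to a fold of 0.872.

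Fads2 had control levels of 204 ± 44.4 CPM at ZT2, 289 ± 32.3 at ZT6, 344 ± 69.6 at ZT10, 335 ± 43.96 at ZT14, 261 ± 41.1 at ZT18 and 253 ± 48.98 at ZT22 and THRBKO means of 209, 269, 273, 414, 219 and 229 CPM. At ZT14 the knockouts had 345, 361 and 538 CPM, of which mouse c was the highest of all 36 livers, and the controls 343, 375 and 288 CPM. That same THRBKO mouse was also the highest of all for Fads1, and the lowest for Acacb. The log2 fold change of Fads2 over all times was -0.08 (SE 0.08, 95% interval -0.25 to 0.08, adjusted p = 0.753).

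Levels of different genes can be compared only per length. In CPM per kb of gene model, the mean over all 36 livers (± SD) was 1641 ± 538 for Scd1, 182 ± 49.4 for Fads2, 151 ± 19.7 for Fads1, 129 ± 53.3 for Elovl5, 112 ± 60.7 for Fasn, 87.7 ± 41.6 for Acly, 75.6 ± 28.1 for Srebf1, 25.2 ± 13.1 for Elovl6, 11.4 ± 5.82 for Acacb and 5.90 ± 1.52 for Acaca. Scd1 ranked 36 among all genes and Acaca 4853. Scd1 exceeded Fads2, and Srebf1 exceeded Elovl6, in 36 of 36 livers, and Elovl6 exceeded Acacb in 34. The order was not fixed between Fads1 and Elovl5 (21 of 36), Elovl5 and Fasn (20 of 36) or Acly and Srebf1 (18 of 36), whose levels per length did not differ beyond their spread. Between them stood Fads2 over Fads1 (33 livers), Fasn over Acly (29) and Acacb over Acaca (30). This order rests on the deposited gene model lengths, such as 1508 bases for Fads2 and 3456 for Fads1. Before division by length Fads1 was higher, with 536 against 281 CPM in controls and 506 against 269 in THRBKO mice. The lengths of the transcripts made in these livers were not tested.

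**Figure D2:**
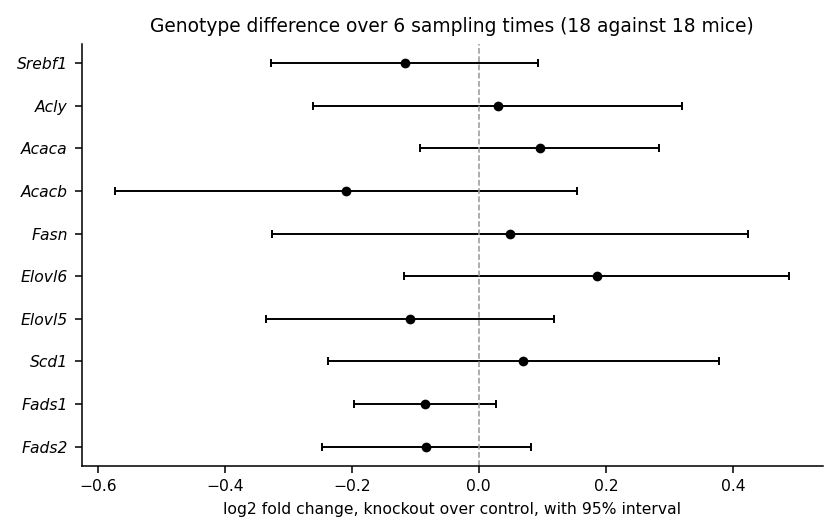
Log2 fold change of knockout over control (horizontal axis) for each gene, from the model with sampling time, with points for the estimate and bars for the 95% interval over 18 against 18 mice. All 10 intervals include 0, and the estimates lie between -0.21 (Acacb) and 0.19 (Elovl6).

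The genotype comparison asked whether loss of THRB shifted the pathway's transcripts on average over the sampling times. With sampling time in the model, the quasi-likelihood test of edgeR, adjusted by Benjamini-Hochberg over all genes, called 0 of 10 genes. None had an unadjusted p below 0.05, and DESeq2 also called 0. Over all genes the test called 171 (0.95%), of which 91 were higher (0.506%) and 80 lower (0.445%) in THRBKO livers, while 2169 had an unadjusted p below 0.05 and DESeq2 called 315. The median fold change of the 10 genes was -0.03 (log2) against -0.00112 over all genes, and the median absolute value 0.09 against 0.07. The intervals give the sizes that these data leave room for: from a fold of 0.872 to 1.02 for Fads1, the narrowest, and from 0.798 to 1.34 for Fasn, the widest on the log2 scale. A p above the threshold does not show that the genotypes were equal.

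At single times edgeR's test called 0 of 10 genes at each of the 6 times, none of them with an unadjusted p below 0.05, and DESeq2 called 0 as well. The share called over all genes was 0.0278% at ZT2, 0.0111% at ZT6, 0.0167% at ZT10, 0.0167% at ZT14, 0.0222% at ZT18 and 0.0222% at ZT22, with 741 to 977 unadjusted p-values below 0.05 and 5 to 18 calls by DESeq2. Of the 60 gene and time combinations, the 3 mice of each genotype did not overlap in 3 (5%), namely Fads1 at ZT10 and Elovl5 at ZT22, both lower in THRBKO mice, and Acaca at ZT18, higher. Over all genes the share was 9.96%. The median of the 10 differences was lowest at ZT10, -0.19 (log2), and highest at ZT18, 0.16, but no test of a change between times passed. The genotype by time interaction called 0 of 10 genes and 0% of all genes with edgeR (0 of 10 and 484 of all genes with an unadjusted p below 0.05, DESeq2 0), and the lowest p among the 10 was 0.248, for Fads2.

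Time of day was tested within each genotype as a factor of 6 levels. In controls edgeR's test called 5 of 10 genes, against 26.4% of all genes: Elovl5 (adjusted p = 1.46e-04), Elovl6 (0.00194), Srebf1 (0.00277), Fads2 (0.0245) and Acly (0.0334). Fasn (0.0755), Acacb (0.101) and Acaca (0.104) did not pass it, although 8 of 10 had an unadjusted p below 0.05 and DESeq2 called 7. In THRBKO mice 8 of 10 were called, against 24.9% of all genes, by edgeR and DESeq2 alike: Fads2 (adjusted p = 0.00131), Elovl6 (0.00186), Acly (0.00214), Srebf1 (0.00394), Elovl5 (0.00555), Acacb (0.00716), Fasn (0.023) and Acaca (0.0244). Scd1 was called in neither genotype (0.602 and 0.597), nor was Fads1 (0.532 and 0.14), which passed in THRBKO mice when the letter of the mouse was added to the model as a block (adjusted p = 0.0191). The fitted range between the highest and the lowest time had a median of 1.28 (log2) over the 10 genes in controls and 1.22 in THRBKO mice, against 0.60 and 0.58 over all genes. The different numbers of calls do not show a difference between genotypes, since the interaction called none.

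These counts rested on few mice per time. When all mice lettered a, b or c were dropped in turn, 1, 1 and 3 of the 10 genes were called in controls and 4, 2 and 6 in THRBKO mice. Calls over all genes fell as well, in controls from 4748 to 2746, 2234 and 2232. In THRBKO mice they fell from 4479 to 2140, 2373 and 1955, so the losses were not particular to the 10 genes. Without control mouse c of ZT10 and knockout mouse c of ZT14, which were left out after their values had been seen, 8 were called in each genotype, since Fasn (adjusted p = 0.0358), Acacb (0.0212) and Acaca (0.0223) then passed in controls too. Over all genes 4550 were then called in controls and 4165 in THRBKO mice.

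**Figure D3:**
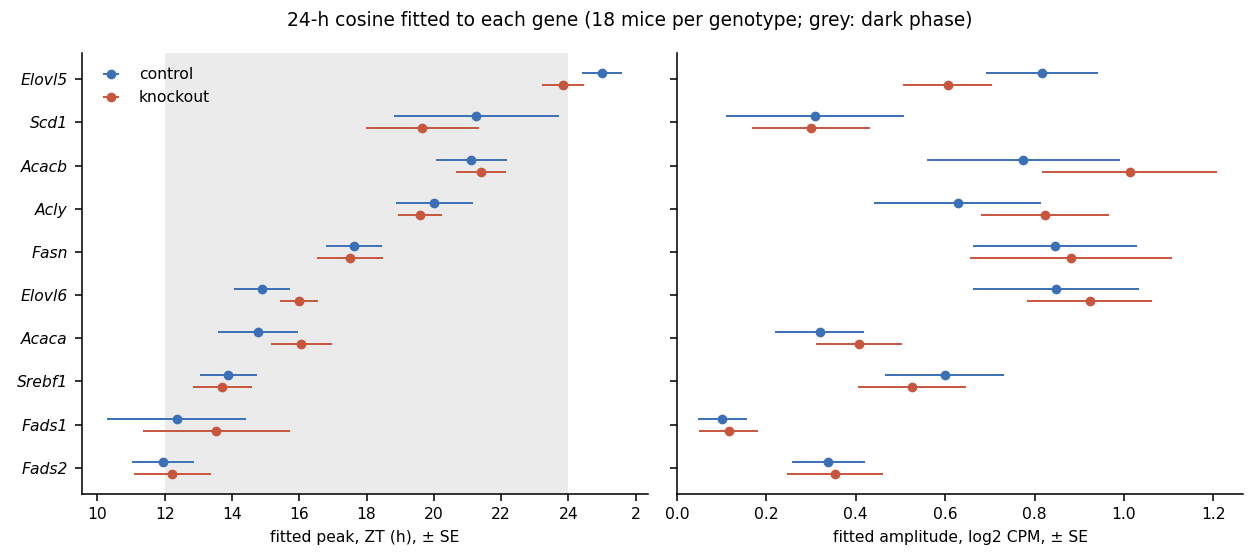
Fitted peak time (left, ZT in h) and amplitude (right, log2 CPM) of a 24-h cosine for each gene, with points for the estimate, bars for ± SE, controls in blue and knockouts in red, ordered by the control peak. Peaks run from ZT12.0 for Fads2 to ZT1.01 for Elovl5 in controls, and the bars of Scd1 and Fads1 are wide beside their small amplitudes.

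A 24-h cosine was fitted to the log2 CPM of the 18 mice of each genotype, which gives a peak time and an amplitude (the height of the peak above the daily mean, in log2 CPM). Srebf1 peaked at ZT13.9 ± 0.845 h (SE) in controls and ZT13.7 ± 0.877 h (SE) in THRBKO mice, with amplitudes of 0.60 ± 0.13 and 0.53 ± 0.12. Fads2 came before it, at ZT11.95 ± 0.924 h (SE) and ZT12.2 ± 1.15 h (SE). Acaca at ZT14.8 ± 1.19 h (SE) and Elovl6 at ZT14.9 ± 0.833 h (SE) had control peaks close after that of Srebf1, and Fasn followed at ZT17.6 ± 0.830 h (SE).

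Acly, Acacb and Elovl5 peaked later. Acly reached its control peak at ZT20.02 ± 1.14 h (SE) and Acacb at ZT21.1 ± 1.06 h (SE), with amplitudes of 0.63 ± 0.19 and 0.78 ± 0.22. Elovl5 peaked at ZT1.01 ± 0.587 h (SE) in controls and ZT23.8 ± 0.628 h (SE) in THRBKO mice, with amplitudes of 0.82 ± 0.13 and 0.61 ± 0.10, on the opposite side of the day from Srebf1. For Scd1, with an amplitude of 0.31 ± 0.20 in controls, and Fads1, with 0.10 ± 0.05, the peaks at ZT21.3 ± 2.45 h (SE) and ZT12.4 ± 2.07 h (SE) were poorly defined.

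No difference of the 24-h curves between genotypes was called, and differences in peak time had wide SE. The THRBKO peak minus the control peak was 1.29 ± 1.49 h (SE) for Acaca, 1.09 ± 1.01 h (SE) for Elovl6, -1.16 ± 0.86 h (SE) for Elovl5 and -1.60 ± 2.97 h (SE) for Scd1, where a positive value is a later peak in THRBKO mice. For the other genes it lay between -0.43 h (Acly) and 1.18 h (Fads1). The test of both cosine terms together called 0 of 10 genes and 0% of all genes (edgeR, with 0 of 10 and 553 of all genes at an unadjusted p below 0.05, and DESeq2 0), with a lowest p of 0.178 for Elovl5. With 3 mice per time the SE of these differences was 0.86 to 3.01 h, so that shifts of 1 to 2 h could not be told from none for most of the genes.

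**Figure D4:**
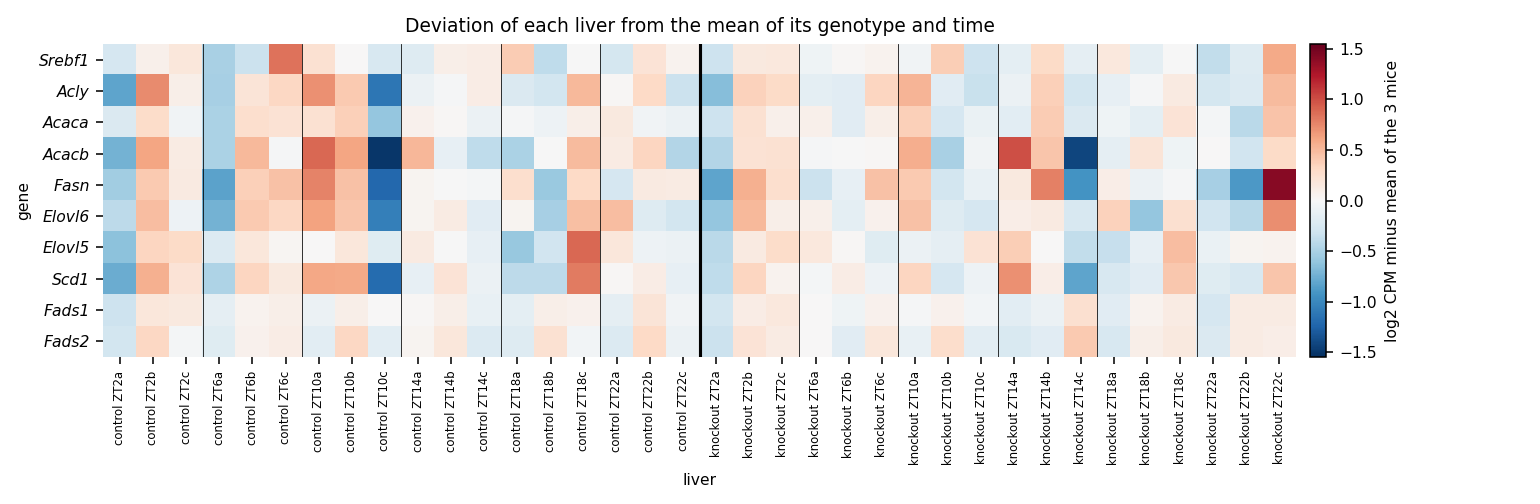
Log2 CPM of each gene (rows) in each liver (columns) minus the mean of the 3 mice of its genotype and time, red above and blue below that mean, with the thick line between controls and knockouts. Columns tend to have 1 colour, as for control ZT2a, control ZT10c and knockout ZT22c, while Fads1 and Fads2 stay pale.

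Much of the variation of these genes lay between mice of the same genotype and time. The SD within groups was 0.66 (log2 CPM) for Fasn and Acacb, 0.53 for Scd1, 0.51 for Elovl6 and 0.50 for Acly, against a median of 0.26 over all tested genes. Fasn varied more than 88.6% of these genes, and more than 98.3% of those with a mean of at least 100 counts. Elovl5 (0.36), Srebf1 (0.35) and Acaca (0.30) lay between, and Fads2 (0.25) and Fads1 (0.17) were lowest. Among genes with a mean of at least 100 counts, Fads2 still varied more than 80.3% and Fads1 more than 54.8%.

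The genes tended to deviate together. All 10 were below their group mean in mouse a of control ZT2, control ZT6 and THRBKO ZT2. All 10 were above it in mouse b of control ZT2, control ZT10 and THRBKO ZT2, and in mouse c of THRBKO ZT2 and THRBKO ZT22. In mouse c of THRBKO ZT22, Fasn stood 1.41 (log2) above. Deviations within a group sum to 0, so a low mouse raises the others of its group. In control mouse c of ZT10, 9 of 10 were below, from -1.51 for Acacb to Fads1 at its group's mean. In THRBKO mouse c of ZT14, 8 were below, with Acacb at -1.43, and 2 above, with Fads2 at 0.41. The part of depth or of other cell types in these values was not tested.

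As a description over 36 livers that share library preparation and their groups' times, the deviations from the group means correlated most between the neighbouring desaturase genes Fads1 and Fads2 (Pearson r = 0.89), and then between Acaca and Elovl6 (0.88), Acacb and Scd1 (0.88), Acaca and Fasn (0.85) and Acly and Acaca (0.84). Between Fads2 and the enzymes of synthesis r ran from 0.08 (Acacb) to 0.41 (Acly), and with Fasn it was 0.16. Srebf1 went with Fasn at 0.66. Srebf1 and Elovl5 had an r of -0.60 over all 36 levels, with opposite profiles over the day, and of 0.07 within groups.

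For each of the 10 genes, the 3 other protein-coding genes most like it were taken by Pearson r of log2 CPM over the 36 livers, among 10104 genes with a mean of at least 100 counts. Thrsp, which encodes the thyroid hormone responsive protein Spot 14, was among the 3 for Fasn (r = 0.83), Elovl6 (0.86) and Acaca (0.82). Closest to Fasn was Umps (0.91), the last enzyme of UMP synthesis, followed by Thrsp and Miga2 (0.83), and closest to Elovl6 after Thrsp were Asl (0.85) and Vac14 (0.84). For Acaca the nearest was the glycolytic gene Pklr (0.87).

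Pgd, an NADPH-producing enzyme of the pentose phosphate pathway, was nearest to Acacb (0.90), with Chrna4 (0.89) and Ido2 (0.88), and among the 3 nearest to Acly (0.86) after Shmt1 (0.89) and Lacc1 (0.87). Elovl5 was most like Coq8a (0.89), the acyl-CoA synthetase gene Acsl5 (0.88) and Amt (0.88). Scd1 was most like Tmem135 (0.86), the glycogen phosphorylase gene Pygl (0.84) and Eno1b (0.79), and Srebf1 like Fam102a, Homer2 and Uqcc1 (0.83 each). Fads1 and Fads2 had weaker matches: Hspa9 (0.72), Clptm1 (0.69) and Maoa (0.68) for Fads1, and Rab11fip2, Ddb1 (0.80 each) and Xdh (0.79) for Fads2.

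**Figure D5:**
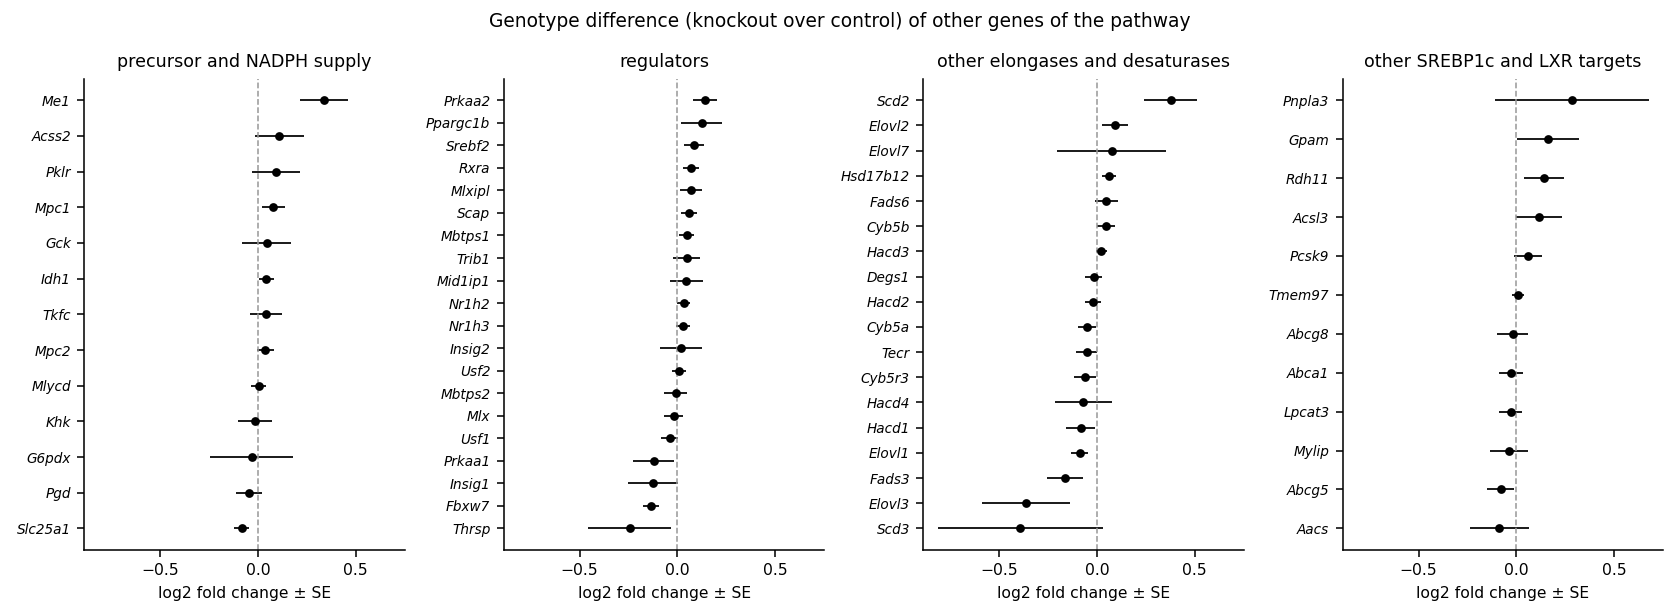
Log2 fold change of knockout over control (horizontal axis, points for the estimate, bars for ± SE over 18 against 18 mice) of tested genes in 4 lists around the pathway, with 1 precursor gene left out. Most points lie within 0.2 of 0, and none passed the test, including Me1 and Scd2 on the right and Scd3, Elovl3 and Thrsp on the left.

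The surrounding genes of the pathway were described by lists. Of 14 genes that supply precursors and NADPH, 0 were called by edgeR and 2 had an unadjusted p below 0.05, with a median fold change of 0.04 (log2). The largest difference was that of Me1, malic enzyme, a textbook thyroid hormone target: 322 ± 89.0 CPM in controls and 415 ± 129 CPM in THRBKO mice (18 each), a log2 fold change of 0.34 (SE 0.12, adjusted p = 0.215). Acss2 followed with 0.11 (SE 0.13) and Pklr with 0.09 (SE 0.12). Time of day was called for 5 of the 14 in controls and 6 in THRBKO mice, against 26.4% and 24.9% of all genes.

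Of 20 regulators, 0 were called by edgeR and 2 had an unadjusted p below 0.05, with a median of 0.03. Thrsp had the largest estimate, -0.24 (SE 0.21, adjusted p = 0.714), beside a range of 2.98 (log2) over the day in controls and 3.18 in THRBKO mice. Prkaa2, an AMP kinase subunit, had 0.14 (SE 0.06, adjusted p = 0.357), and Fbxw7, which marks SREBP for degradation, -0.13 (SE 0.04, adjusted p = 0.143). Time of day was called for 10 of 20 in controls and 12 in THRBKO mice, against 26.4% and 24.9% of all genes. Among them was Insig2, the sterol-sensitive anchor of SREBP, with its highest mean at ZT2 and a range of 2.35 and 2.32 (log2).

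Of 20 other elongases, desaturases and their partner enzymes 18 were tested, 0 were called by edgeR and 1 had an unadjusted p below 0.05, with a median of -0.04. That gene was Scd2, at 6.81 ± 1.82 CPM in controls and 9.02 ± 3.54 CPM in THRBKO mice, a log2 fold change of 0.38 (SE 0.14, adjusted p = 0.212). Scd3, at a mean below 0.2 CPM, had -0.39 (SE 0.42), and Elovl3, the elongase of very long saturated chains, -0.36 (SE 0.23, adjusted p = 0.553) beside a range over the day of 4.19 (log2) in controls and 4.04 in THRBKO mice, wider than that of any of the 10 genes. Time of day was called for 6 of the 18 in controls and 7 in THRBKO mice, against 26.4% and 24.9% of all genes.

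Of 12 other SREBP1c and LXR targets, 0 were called by edgeR and none had an unadjusted p below 0.05, with a median of -0.00495 (log2). The largest estimates were 0.28 (SE 0.39) for Pnpla3, at under 2 CPM on average, 0.16 (SE 0.16) for Gpam, the first enzyme of glycerolipid synthesis, and 0.14 (SE 0.10) for Rdh11. Time of day was called for 6 of the 12 in controls and 9 in THRBKO mice, against 26.4% and 24.9% of all genes.

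Libraries did not keep strand, so reads of genes that overlap on opposite strands could not be separated. The gene Gm35986 on the other strand at the start of Elovl6 had 5.26% of Elovl6's counts, Rai1 4.14% of those of Srebf1 and Gm11437 3.73% of those of Acaca. One annotated transcript of another gene, Gm5182, matched Acaca over 6118 bases at 99.2% identity and had counts equal to 5.30% of Acaca's. Since the treatment of reads with several matches is not given, that share does not bound the uncertainty of the level of Acaca. The match had to cover 150 bases at 95% identity, and the only other one, of Gm11295 with Elovl6, belonged to a gene with 10 counts in all. For Scd1, the paralogs Scd2, Scd3 and Scd4 gave none.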

How the data were processed

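The authors removed adapter-containing, undetermined and low-quality reads, mapped read pairs to GRCm38/mm10 with HISAT2 and counted them per gene with featureCounts. They deposited raw counts for 54532 genes, without normalization. Tool versions, annotation release and treatment of reads with several matches are not given in the sources used here, and the libraries were not strand-specific. Groups come from the sample labels.

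All values were computed from these counts. The test was run on the 17994 genes whose counts summed to 100 or more, with TMM sizes and the functions glmQLFit and glmQLFTest of edgeR 4.0.16 in R 4.3.3, after it had been tested on simulated data. Genotype was tested with sampling time as a factor, at single times, as an interaction and as a difference of 24-h cosine terms, and time within each genotype. P-values were adjusted by Benjamini-Hochberg over all tested genes, with a threshold of 0.05. Log2 CPM used a prior count of 2. DESeq2 1.42.0, no filter, genotype alone, replicate blocks and leaving out mice were alternatives. Transcripts were matched with BLAST 2.17.0.

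Named genes were the 10 chosen genes, any gene of the surrounding lists past the threshold, the 3 with the largest fold change in each pathway list and the 3 most like each chosen gene. Insig2 was added after its values were seen, and 1 gene that the rule names is not reported here. The genes and lists were chosen with earlier results of these data known.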

Additional observations from a re-analysis of the deposited data

How the results depend on the processing

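Between genotypes, 0 of the 10 genes were called over all times, at any single time, in the interaction or in the cosine test, under every alternative run. The direction of 4 estimates, none of them called, turned when the mice of 1 letter were left out, which gave -0.0414 to 0.128 (log2) for Acly and -0.106 to 0.11 for Fasn (lowest without c), -0.0421 to 0.199 for Scd1 (lowest without a) and -0.191 to 0.0154 for Fads2 (highest without b). The number of the 10 called for time of day, 5 in controls, was 8 with no filter, 8 without control mouse c of ZT10 and knockout mouse c of ZT14 (chosen after seeing the data), and 1 to 3 with 1 letter left out. In THRBKO mice, 8 became 2 to 6 with 1 letter left out and 9 with a replicate block by letter, where Fads1 was added (adjusted p = 0.0191). Leaving out a letter takes 6 mice from each genotype, so that each time has 2.

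Same-lettered mice of the 2 genotypes tended to deviate together: r of their deviations exceeded 0.1 in 16 of 18 pairs (lowest -0.0913, median 0.229, against -0.120 for other letters), and 16 of 18 controls were closest to their own letter. Deviations within a group sum to 0, so a positive r for the same letter brings a negative one for other letters. The value of -0.120 is thus no independent comparison. The labels do not explain the letters, and the main tests carry no block, although these values hint at something shared by mice of a letter. In the sample descriptions, same-lettered mice of the 2 genotypes carry close numbers at most times, without a stated meaning. If the letters mark pairs, the SE and intervals given above ignore them. With a block by pair the SE was smaller for each of the 10 genes, as for Fads1 (0.0421 instead of 0.0552) and Elovl6 (0.117 instead of 0.149). With a replicate block, 0 of the 10 genes were called between genotypes, while over all genes 387 (pairs of one time and letter) and 275 (letter) were called instead of 171. Over all genes, the genotype test also called 315 with DESeq2, 65 with genotype alone, and 42, 85 and 68 without letters a, b and c. The time test called 2232 to 2746 genes in controls instead of 4748, and 1955 to 2373 in THRBKO mice instead of 4479, with 1 letter left out.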
